A study of Mus musculus and Heterocephalus glaber with 4 samples.

Results

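Open chromatin at 7 genes that mark fibroblasts and mesenchymal cells, Col1a1, Col1a2, Fn1, Vim, Thy1, Twist1 and Has2, was described from ATAC-seq peak lists of mouse adult skin fibroblasts. Peaks were chosen by position: every peak within 20 kb of a fixed mm9 window around each gene was taken. This gave 30 of the 75120 peaks of the control list and 28 of the 63258 peaks of the large T list. ATAC-seq reads open DNA by letting a transposase cut it and attach sequencing adapters, and a peak is a stretch where such cuts pile up.

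The series holds 4 libraries, and the 2 mouse libraries are used here. The control cells and the cells given SV40 large T antigen, a viral oncoprotein that inactivates p53 and retinoblastoma proteins, were otherwise labelled alike. Both were at passage 16 and grew in 15% serum at 37 °C, 5% CO2 and 3% O2. The labels give no strain, sex, age or number of animals, and do not say how large T was delivered or whether the cells were a clone. Each group has 1 library, so no value below has a replicate error, no difference between conditions was tested, and read depth is unknown.

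Fibroblasts build and maintain the connective tissue of the skin. Col1a1 and Col1a2 encode the chains of type I collagen, the main fibrous protein of dermis, and Fn1 encodes fibronectin, a glycoprotein that links cells to the matrix. Has2 encodes a hyaluronan synthase, the enzyme that spins out the long sugar polymer hyaluronan, for which naked mole rat fibroblasts are also known. Vim encodes vimentin, the intermediate filament protein of mesenchymal cells, Thy1 encodes a surface glycoprotein used to sort fibroblasts, and Twist1 encodes a basic helix-loop-helix transcription factor of the mesenchyme.

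The RefSeq promoter table (build GRCm38.p6) held 3 of the 7 genes, Col1a2, Vim and Twist1, and their 250 bases before the gene start are shown because a peak of both mouse lists lay over each of these starts. They lie on the plus strand at chr6:4505368-4505617, chr2:13574061-13574310 and chr12:33957421-33957670 of GRCm38.p6, which is not the build of the peaks. Capitals mark CCAAT and TATAA, the letters of the CCAAT box and of a TATA box core, searched on both strands (ATTGG and TTATA on the other strand).
Col1a2: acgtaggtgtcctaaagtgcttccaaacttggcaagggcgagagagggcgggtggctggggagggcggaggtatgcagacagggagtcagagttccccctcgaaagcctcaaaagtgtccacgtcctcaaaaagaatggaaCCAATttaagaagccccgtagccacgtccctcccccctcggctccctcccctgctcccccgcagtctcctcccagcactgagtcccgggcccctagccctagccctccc
Vim: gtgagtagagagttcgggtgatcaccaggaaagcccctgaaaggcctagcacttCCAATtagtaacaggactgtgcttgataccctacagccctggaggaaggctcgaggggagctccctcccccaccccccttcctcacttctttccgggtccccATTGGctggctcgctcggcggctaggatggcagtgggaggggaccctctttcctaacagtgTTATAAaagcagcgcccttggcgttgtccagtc
Twist1: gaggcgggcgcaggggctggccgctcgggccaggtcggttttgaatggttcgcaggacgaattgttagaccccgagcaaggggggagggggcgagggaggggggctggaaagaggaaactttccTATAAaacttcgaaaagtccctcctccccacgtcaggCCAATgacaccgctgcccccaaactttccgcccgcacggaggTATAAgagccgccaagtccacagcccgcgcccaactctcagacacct
All 3 promoters held CCAAT on either strand, with the letters beginning 109 bases before the start in Col1a2, 196 and 94 in Vim and 89 in Twist1. Vim and Twist1 also held TATAA, beginning 32 bases before the start in Vim and 126 and 47 in Twist1, and in Vim its reverse complement overlaps it. Among 32851 promoter stretches of the same length in the table, 33.8% held CCAAT, 22.8% held TATAA and 8.16% held both. The 3 stretches were 58.4% to 62.4% G and C, against a median of 52.4% over the table. Letters in these stretches are a description and not evidence of a bound factor.

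Every gene had open chromatin called over its start in control cells, and all but Thy1 did in large T cells. The 7 genes are themselves the markers of the labelled cell type, and an open start is no measure of expression. The loci held 67.1 peaks per Mb of searched sequence in the control list and 62.7 in the large T list, against 28.5 and 24.0 over each whole list. The searched sequence is genes and their flanks while the whole lists span all sequence, and windows around other genes were not measured. Peaks covered 17.0% of the searched 0.447 Mb in control cells and 11.7% in large T cells, against 4.17% and 3.27% list-wide. The median width at the loci was 1708 bp in control cells and 1218 bp in large T cells, against 1220 and 1158 bp in the whole lists. Peaks of at least 2 kb numbered 13 of 30 in control cells (43.3%, exact 95% interval 25.5 to 62.6) against 18.2% list-wide, and 10 of 28 in large T cells (35.7%, 18.6 to 55.9) against 15.2% list-wide. Intervals cover counting error over peaks only.

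Scores at the loci lay around the middle of each list. The score percentile, the place of a peak's score within its own list, had a median of 48.1 at the loci in control cells and 41.9 in large T cells. Among peaks that touch the windows the order was the other way round, with medians of 45.4 and 63.2. Above the 90th percentile lay 4 of 30 control peaks, where 10% of the list lies by construction, and 1 of 28 large T peaks (10% list-wide). Of the control peaks, 24 of 30 (80.0%, exact 95% interval 61.4 to 92.3) overlapped a large T peak, against 71.2% of the whole control list. Of the large T peaks, 25 of 28 (89.3%, 71.8 to 97.7) overlapped a control peak, against 85.2%. Both list-wide shares fall within the intervals of the loci.

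**Figure D1:**
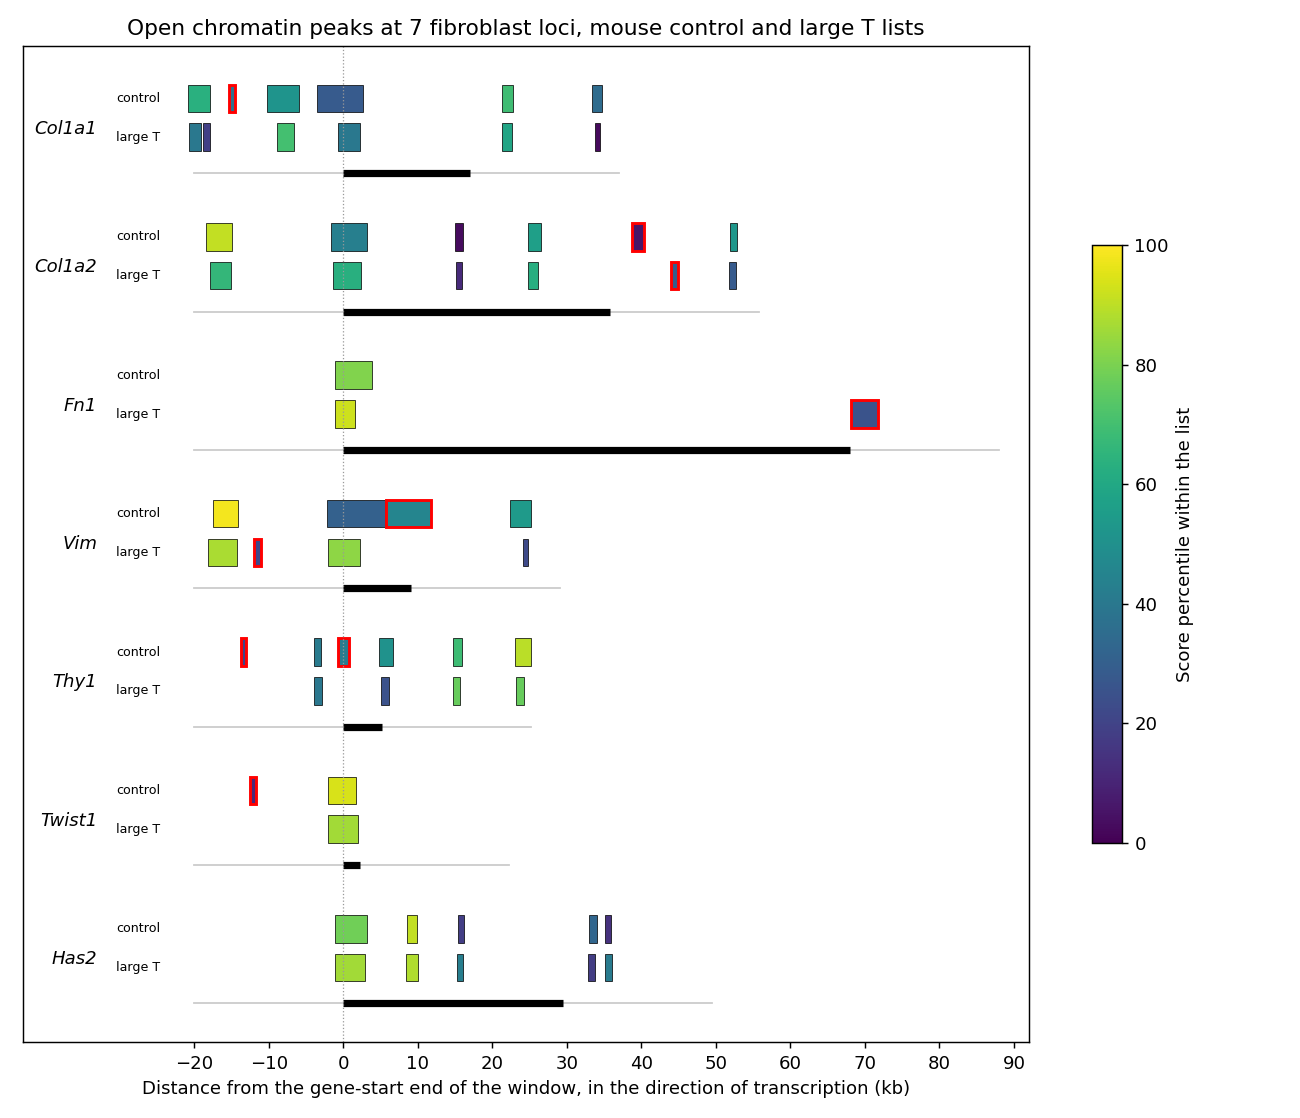
Peaks within 20 kb of each gene window in the mouse control list (upper row) and the large T list (lower row), by distance from the gene-start end in the direction of transcription (kb). Fill gives the score percentile within the list, red outlines mark the 6 control and 3 large T peaks without a counterpart, and black bars mark the gene windows. Wide peaks sit over the start of every gene but Thy1.

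The type I collagen genes were open at their starts and at flanking sites in both lists. At Col1a1 the start peak was 6165 bp wide in control cells (chr11:94793973-94800137) and 2916 bp in large T cells (chr11:94796843-94799758). The control peak reached 3527 bp upstream of the window and the large T peak 657 bp, while their inner edges lay 2637 and 2258 bp into the gene, so the peaks differed mostly on the upstream side. The start peak stood at score percentile 28.3 in control cells and 40.0 in large T cells. Neither list placed its highest Col1a1 score at the start. In control cells the highest lay 4275 bp past the gene end, towards Sgca, the next coding gene in RefSeq's order (percentile 69.1), and in large T cells it lay 6641 bp upstream (percentile 69.9).

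That upstream Col1a1 site was 4332 bp wide in control cells (percentile 51.9) and 2187 bp in large T cells. A farther site, 17881 bp upstream in control cells, was 1 peak of 2893 bp there and 2 peaks of 1648 and 1014 bp in large T cells. A small control-only peak of 880 bp lay between them at chr11:94782135-94783014 (percentile 37.7). In its score decile 41.2% of all control peaks had no large T counterpart. Both lists held 6 peaks at Col1a1, yet large T peaks covered 55.3% of the length that control peaks covered (9052 against 16362 bp).

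At Col1a2 the start peak was 4753 bp wide in control cells (chr6:4454076-4458828, percentile 42.9) and 3799 bp in large T cells (chr6:4454331-4458129, percentile 63.2). The promoter sequence printed above belongs to this start. The highest-scoring peak of the locus lay upstream in both lists, its near edge 14968 bp from the start in control cells (chr6:4437327-4440729, 3403 bp, percentile 91.0) and 15011 bp in large T cells (2855 bp, percentile 66.3). Inside the gene both lists had a site about the same distance in: at 14977 bp in control cells (percentile 2.75) and 15097 bp in large T cells (percentile 12.1). A further intragenic site began 24839 bp in for control cells (percentile 56.0) and 24823 bp in for large T cells (percentile 62.6).

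Past the end of Col1a2 the lists parted at the nearer sites and shared a farther one. The control list alone had chr6:4494390-4496100, 1711 bp wide at percentile 5.59, and the large T list alone had chr6:4499702-4500560, 859 bp wide at percentile 29.4. These peaks lay 3602 bp apart. In their score deciles 70.2% of control peaks and 25.7% of large T peaks had no counterpart. The shared site was chr6:4507575-4508485 in control cells (911 bp, percentile 52.8) and chr6:4507493-4508408 in large T cells (916 bp, percentile 28.3). The covered length at Col1a2 in large T cells was 77.6% of that in control cells, close to the 78.6% of the whole lists.

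Fn1 was the sparsest locus. In a searched 108 kb, the control list held 1 peak, over the start (chr1:71696074-71701118, 5045 bp, percentile 81.2). The large T list held its counterpart (chr1:71698465-71701046, 2582 bp, percentile 92.2), the only large T peak at the 7 loci above the 90th percentile. Their upstream edges lay 1118 and 1046 bp before the gene start, and their inner edges 3926 and 1535 bp into the gene, so here the control peak was longer on the transcribed side. The large T list also held chr1:71628222-71631915, a peak of 3694 bp beginning 85 bp past the gene-end edge of the window, on the side of Atic, at percentile 25.7. It had no control peak within 22966 bp. Only 0.535% of the 9341 large T-only peaks of the list were as wide or wider. With the search widened to 50 kb, Fn1 had 6 control and 5 large T peaks, so its low count holds for the nearer distance only.

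At Has2, the hyaluronan synthase gene, the lists matched site for site within 20 kb. Each held 5 peaks, every peak had a counterpart, and large T peaks covered 100.6% of the control length (8388 against 8337 bp). With the control list trimmed, keeping its highest scores, to the length of the large T list, 4 Has2 peaks remained in it. Within 50 kb the counts were 7 control and 8 large T peaks. The start peak was 4365 bp wide in control cells (chr15:56523297-56527661, percentile 78.5) and 4123 bp in large T cells (chr15:56523517-56527639, percentile 86.0). An intragenic site whose near edge lay 8505 bp past the start scored highest at the locus, at percentile 90.8 in control cells (1404 bp) and 88.3 in large T cells (1545 bp). The remaining 3 sites were 746 to 1072 bp wide in either list, at percentiles of 14.4 to 32.5 in control and 17.8 to 42.5 in large T cells. RefSeq lists an RNA gene, Has2os, that overlaps Has2, so the peaks cannot be assigned to Has2 alone.

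At Vim nearly the whole gene lay under peaks in control cells, and only its first part did in large T cells. The control start peak spanned 7818 bp (chr2:13493253-13501070), wider than 99.99% of the control list, and a control peak of 6092 bp (chr2:13501150-13507241) followed it and ran past the gene end. Control peaks thus covered 99.1% of the gene window and large T peaks 24.1%. The large T start peak spanned 4225 bp (chr2:13493368-13497592). The upstream edges of the start peaks were close, 2147 and 2032 bp before the gene, while the inner edges lay 5670 and 2192 bp into it. The start peak stood at percentile 30.6 in control cells and 82.9 in large T cells.

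The second control peak of Vim (percentile 45.4) had no large T peak within 3558 bp. It was the 3rd widest of the 21604 control-only peaks of the list. It began at position 13501150, just past the end of the control start peak at 13501070, which does have a large T counterpart. Its place among control-only peaks thus rests on its being called apart from that start peak. The highest-scoring peak of the locus lay 14130 bp upstream in control cells (chr2:13477941-13481270, 3330 bp, percentile 98.3) and 14234 bp upstream in large T cells (3905 bp, percentile 87.5). Trdmt1 is the next coding gene on that side in RefSeq's order. The large T list alone had a small peak of 889 bp at chr2:13483467-13484355 (percentile 21.4). Past the gene end, a site of 2796 bp at percentile 54.1 in control cells was 691 bp wide at percentile 22.6 in large T cells. Covered length at Vim in large T cells was 48.5% of control, the lowest ratio of the 7 loci.

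Thy1 was the only gene of the 7 whose start was called open in 1 list. The control start peak (chr9:43850801-43852182) was 1382 bp wide, the narrowest start peak of the 7, at percentile 41.7. The nearest large T peak lay 2134 bp away. Of the control peaks in the same score decile, 29.6% had no large T counterpart, while 71.2% of the whole control list had one. Among the 21604 control-only peaks of the list, 11.1% were as wide or wider. Both lists had a site upstream, with its near edge 2974 bp (control, percentile 41.0) and 2800 bp (large T, percentile 39.8) from the start. Both also had a peak over or beside the gene end, 1800 bp wide in control (percentile 50.8) and 997 bp in large T cells (percentile 25.3).

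The strongest Thy1 peaks by score lay past the gene, on the side of Usp2. In control cells these were 1270 bp at percentile 68.6 and 2162 bp (chr9:43874459-43876620) at percentile 89.6, and in large T cells 1009 and 1043 bp, both at percentile 76.6. Another control-only peak of 786 bp lay at chr9:43837706-43838491 (percentile 20.2). Thy1 had 6 control and 4 large T peaks within 20 kb, and 10 and 7 within 50 kb. Covered length in large T cells was 50.8% of control.

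Twist1 had its open chromatin concentrated at the start in both lists. The start peak was 3760 bp wide in control cells (chr12:34640499-34644258, percentile 93.8) and 4034 bp in large T cells (chr12:34640511-34644544, percentile 86.1). It covered 79.9% of this short gene window in control cells and 92.9% in large T cells. The upstream edges lay 2001 and 1989 bp before the gene. Of the 6 genes with a start peak in both lists, Twist1 alone had a start peak that was wider and ranked lower in the large T list. A control-only peak of 734 bp upstream (chr12:34630058-34630791, percentile 11.0) was the other peak of the locus. It dropped out when the control list was trimmed, keeping its highest scores, to the length of the large T list.

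**Figure D2:**
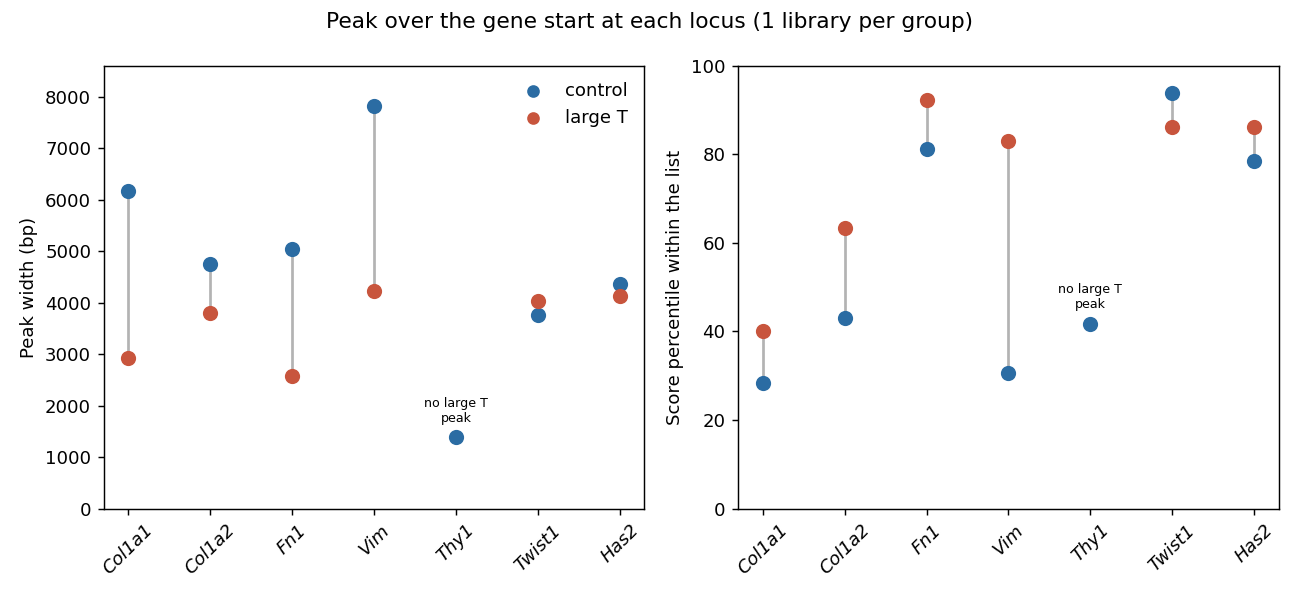
Width (bp, left) and score percentile within the list (right) of the peak over each gene start, control in blue and large T in red, 1 library each. Control and large T widths are 7818 and 4225 bp at Vim and 6165 and 2916 bp at Col1a1, and the large T points stand higher in percentile at 5 of 6 genes.

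Set together, the start peaks were wide in both lists, with a median of 4753 bp for 7 control peaks and 3916 bp for 6 large T peaks. Apart from Thy1 they stood at or above the 97.8th width percentile of the control list, and the large T start peaks at or above the 93.3rd. In 5 of the 6 genes with a start peak in both lists the control peak was the wider. Over all 53375 pairs of counterparts 71.5% were wider in control, and among the 13279 pairs whose control peak was at least 2 kb 84.1% were, so the count at the starts is near that of wide peaks in general. The median width difference (large T minus control) was -1708 bp at the 6 starts. It was -372 bp over pairs with a control peak of at least 2 kb and -156 bp over all pairs. The control peaks at the 6 starts were 3760 to 7818 bp wide, and other pairs of that width were not measured apart.

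The score percentile was higher in large T cells at 5 of the 6 starts, by a median of 11.4 points over the 6. Over all pairs 38.2% were higher in the large T list, and 37.4% of pairs with a control peak of at least 2 kb. The lists differ in length, which shifts percentiles, and with the same number of highest-scoring peaks in each list 50.7% of all pairs were higher in large T cells. Only the control list, the longer one, was shortened for this, so control percentiles could only fall. The 5 starts already higher in large T cells were thus bound to stay so at equal length, where the median over the 6 was 19.9 points. Away from the starts 6 of 18 paired sites were higher in large T cells (33.3%, median -10.7 points), near the 38.2% of all pairs in whole lists. At equal length it was 5 of 16 (31.2%, median -7.61 points), below the 50.7% of all pairs. The sites were not all the same. Trimming removed control peaks chr6:4470674-4471761 at Col1a2 and chr15:56490627-56491372 at Has2, whose pairs were higher in large T cells in whole lists. The upstream Thy1 site turned to higher in large T cells. The split into starts and other sites was made after seeing the data, and the difference between them was not tested. Vim had the largest gap of the starts, 30.6 against 82.9 in whole lists and 17.6 against 82.9 at equal length.

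**Figure D3:**
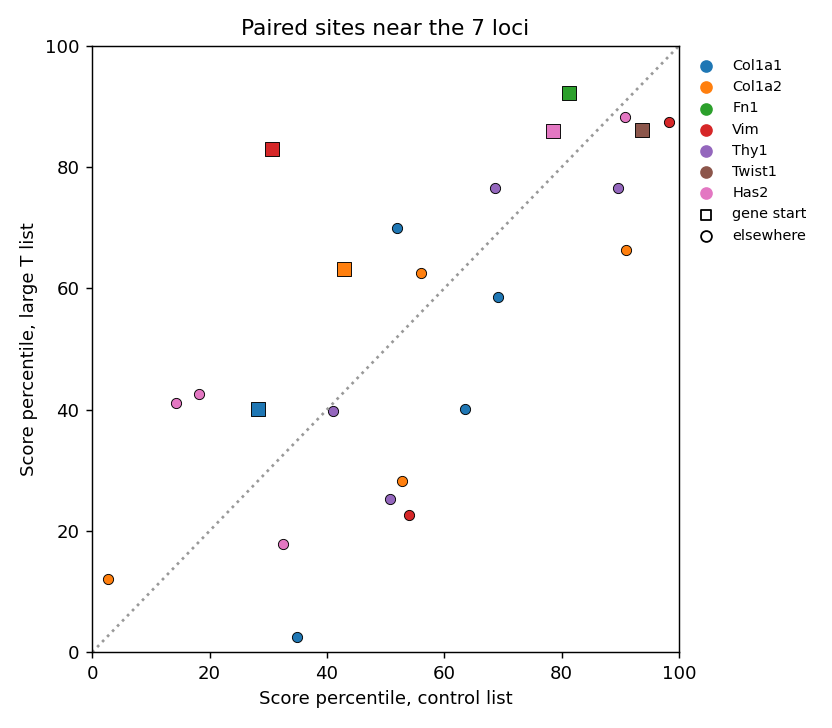
Score percentile in the large T list against that in the control list for the 24 paired sites near the 7 loci, coloured by gene. Squares are gene starts and circles other sites, the dotted line marks equal percentiles, and 5 of 6 squares and 6 of 18 circles lie above it.

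Across the 75120 control peaks width and score were correlated (Spearman's rho 0.70, across peaks of 1 list, which are not replicates), and peaks of at least 2 kb had a median score percentile of 83.2. The control start peaks of Col1a1, Vim and Col1a2 had percentiles of 28.3, 30.6 and 42.9 at widths of 6165, 7818 and 4753 bp. These 3 peaks are named for those values, which were seen before. In the whole control list 244 of 1259 peaks of at least 4 kb (19.4%) stood below the 50th percentile. In the large T list 134 of 659 (20.3%) did, so wide peaks of low score occurred elsewhere too. At the loci it was 4 of 7 control peaks and 0 of 3 large T peaks of at least 4 kb, and the difference was not tested. No source used here says how the authors' score depends on width.

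Over whole loci, large T peaks covered less than control peaks at 5 of 7 genes. The ratio was lowest at Vim (48.5%), Thy1 (50.8%) and Col1a1 (55.3%), intermediate at Col1a2 (77.6%) and Twist1 (89.8%), and at or above equality at Has2 (100.6%) and Fn1 (124.4%). In sum it was 68.6%, with 52.2 kb in large T and 76.1 kb in control cells, against 78.6% for the whole lists. The number of peaks differed less, with 93.3% at the loci and 84.2% for the whole lists. Read depth was not analysed here, and its part in these ratios was not tested.

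**Figure D4:**
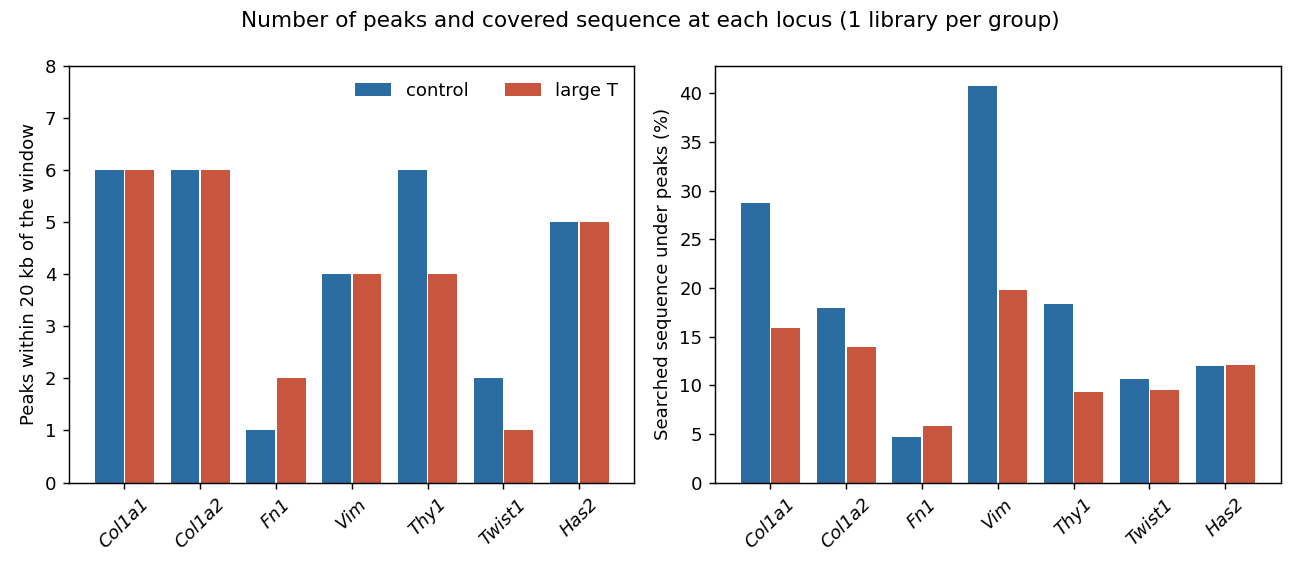
Number of peaks within 20 kb of each gene window (left) and share of the searched sequence under peaks in percent (right), control in blue and large T in red, 1 library each. Col1a1, Col1a2, Vim and Has2 have as many peaks in both lists, while the share under peaks is 40.8% and 19.8% at Vim and 28.7% and 15.9% at Col1a1.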

How the data were processed

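The 2 mouse ATAC-seq peak lists, control and large T, were used; the naked mole rat lists were only counted. The authors deposited start, end, name and a score per peak; the definition of this score is not stated, and it starts at 50.01 (control) and 50.0 (large T). Peak names begin with MACS, per the files; the submitters' processing notes name mm9, and list Bowtie, SAMtools, bedtools and CASAVA without saying what each did. Pooling is not stated. Gene windows were taken as given positions in mm9, and they differ by at most 585 bp in length from the GRCm38.p6 genes of RefSeq. A length does not show where a gene starts, so the error of distances to a gene start is unknown. Strands came from the RefSeq promoter table for Col1a2, Vim and Twist1 and from general knowledge for the others. Coordinates are 1-based.

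Peaks counted as near a gene when any base lay within 20 kb of its window. Just inside this limit lay the control and large T peaks 17881 and 19042 bp from the Col1a1 window (percentiles 63.6 and 40.2), and just outside a control peak 21109 bp from Twist1 (69.8) and a large T peak 20896 bp from Col1a2 (43.4). Counterparts overlapped by at least 1 bp, and pairs were each other's longest overlap. Score percentiles are ranks within a list, ties averaged. Intervals are exact Clopper-Pearson. All 7 genes, their start peaks, highest-scoring peaks and 1-list peaks were described; members and lists were chosen with earlier results of these data known. Overlap, pairing and window functions were tested on simulated lists, and overlap counts equalled those of bedtools 2.31.1. Other genes of the pathway and markers of other cell types were not placed, as no mm9 annotation was used here. Python 3.11.15, numpy 2.4.6, pandas 2.3.3, scipy 1.17.1 and matplotlib 3.10.9 were used.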

Additional observations from a re-analysis of the deposited data

How the results depend on the processing

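The number of peaks near the 7 genes followed the distance searched: 13 control and 11 large T peaks touched the windows, 17 and 15 lay within 5 kb and 49 and 45 within 50 kb, against 30 and 28 within 20 kb. Restricting each list to the upper part by score, 50% of its peaks, left 15 and 13. The control list had more peaks in each of these settings, but with lists of equal length the order turned, to 26 control and 28 large T peaks. Only the control list, the longer one, was shortened for this, so only its count could fall. Large T peaks that overlapped a control peak made up 89.3% in the main setting, 100% inside the windows and 71.4% when 50% of both peaks had to overlap; its other settings, and every setting for the share of control peaks, stayed within the 95% intervals of the main values. The median score percentiles (48.1 in control and 41.9 in large T cells) also stayed within theirs, but these are wide. The order of the lists turned in 3 settings: 45.4 and 63.2 inside the windows, 42.9 and 58.6 within 5 kb, and 38.3 and 53.2 in the upper 50% by score. In the upper 50%, and for control at equal length, percentiles were ranked anew among the peaks kept. Those medians are on another scale than the main values and their intervals. With lists of equal length, 13 of the 14 counts per gene and list stayed within 1.5 times, but the 7 large T counts could not move. Only the Twist1 control count moved beyond that, from 2 to 1. Within it, the control counts fell from 6 to 4 at Col1a2 and from 5 to 4 at Has2. In the other settings more of the 14 counts moved: 12 for peaks touching the windows, 12 in the upper 50% by score, 8 within 5 kb and 6 within 50 kb. The comparison of paired ranks, with its split into gene starts and other sites, was chosen after seeing the data, both in whole lists and at equal length. No paired analysis was possible because each group has 1 library. Depth limits which sites could be called, and it is unknown.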
